A study of Saccharomyces cerevisiae with 28 samples.

Results

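The ist3 deletion strain of budding yeast was compared with wild-type cells in logarithmic growth, on the 2 arrays that the labels assign to it of 28 in the series. These arrays are 1 dye-swap pair, chosen by label and not by any measured value. On array 1 the mutant RNA carried Cy5 and the co-hybridised wild-type RNA Cy3, and on array 2 the dyes were exchanged. The study deleted non-essential genes that interaction screens had tied to splicing and asked how splicing changed. Its other strains lacked CSN12, YPR045C, CSN9, PCI8 or ISY1, sampled in log phase at 30 °C like ist3, or TGS1 or YNR004W, sampled at 30 °C and after a shift to 16 °C. Every mutant was hybridised against wild type grown under its own conditions. The labels do not say which strain background, mating type or number of clones was used, nor whether strains shared a wild-type RNA.

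Ist3 (also called Snu17) is a small RNA-binding protein of the RES complex, the retention and splicing complex that it forms with Bud13 and Pml1. RES joins the spliceosome with the U2 snRNP before the first chemical step, helps introns to be removed efficiently, and limits the leak of unspliced transcripts into the cytoplasm. Most yeast genes with introns have a single intron, and ribosomal protein genes supply most of the spliced mRNA in growing cells. A splicing-specific array carries several probes for an intron-containing gene, which can follow the intron, the splice junction and an exon.

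Values are mean log2 ratios ± SE, read as mutant over wild type. The SE comes from limma fitted across all strains and covers n = 1 dye-swap pair, so the spread is borrowed from the time points of tgs1 and ynr004w at 16 °C. That spread lies between time points and not between ist3 cultures, so these SEs and p-values do not measure variation from culture to culture. A second limma fit on single arrays, with a term for the dye, took the spread from the arrays of each pair, and a call that passed in both fits is marked as such below. Genes with adjusted p under 0.05 were called higher or lower. No source used here states the log base or the direction. The direction is likely because the mutant is channel 1 on both arrays, and a turned ratio would swap "higher" and "lower" throughout. Each of the 2 arrays correlated above 0 with all 13 other arrays of its own dye orientation (26 correlations over 1456 probes, 0.07 to 0.86). The highest were with YPR045C (0.72 for array 1 and 0.86 for array 2) and csn12 (0.52 and 0.73). These exceeded the 0.07 between the 2 ist3 arrays themselves, which differ in dye orientation. How much of this came from the dye was not tested. In the array titles, csn12, YPR045C and ist3 share the leading number of the code, which no other strain has. What that number stands for is not given, and its part cannot be told apart from the strain. The 2 ist3 arrays had values for 9059 and 9109 of 9216 spots. Spot values spread more widely on array 2, with a median absolute deviation of 0.48 against 0.31 on array 1. Having only 2 arrays limits the precision. Over 1456 probes the 2 arrays correlated at a Pearson r of 0.07 and a Spearman rho of -0.14, and at 0.47 and 0.17 once the mean of each dye orientation over the other 13 pairs was taken off. Without the mating type genes the 2 arrays correlated at a Pearson r of -0.04 and a Spearman rho of -0.16. With the orientation means taken off these were 0.22 and 0.16. These correlations are across probes, which are not independent, and describe the arrays.

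IST3 itself did not check the label. Its single probe read 0.63 on array 1 and -0.32 on array 2, a mean of 0.16 ± 0.07 (limma, adjusted p = 0.0672), and the other 13 pairs ran from -0.24 to 0.27. The ist3 pair was thus inside the range of strains that carry the gene, and the signs of its arrays differed. Whether that probe lies in the deleted part is not given, so every result below is about the arrays labelled ist3. AIM21, DJP1, PAN1 and the tRNA gene YNCI0011W, the neighbours of IST3, had no named probe. BUD13, the RES scaffold, was lower at -0.23 (0.22 and -0.68; adjusted p = 0.00949), but not in the fit over single arrays, and PML1, the third subunit, stood at -0.02 (adjusted p = 0.789).

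The clearest pattern in the arrays labelled ist3 lay among the probes within a gene. The array carried 222 genes with 3 probes and 9 with 4. In 220 genes a pair of the probes lay in wells linked by 1 of 4 regular spacings of the print layout, with the third probe elsewhere, and 219 of them were measured. The linked wells are called positions A and B here, and the third probe position C. Which linked well was A was set for each spacing as the one with the higher median in tgs1 and ynr004w at 16 °C, with no ist3 array used. No source used here says which stretch of the transcript a position follows, so positions are described as such.

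Position A was higher in ist3 than B and C of the same gene across most genes with 3 probes. The median level of position A probes was 0.52 on array 1 and 0.30 on array 2, against -0.10 and -0.13 for B and -0.15 and -0.22 for C. Genes with 1 probe had medians of -0.03 and 0.02. Position A was thus the only class above those genes on both arrays, with the mutant in either dye. Of 219 genes, A less the mean of B and C was called in 165 (75.3%), higher in 160 (73.1%) and lower in 5. In the fit over single arrays it was called in 116 (53%), 115 of them higher. The median contrast was 0.53, and it was 0.72 on array 1 and 0.57 on array 2. The contrast was above 0 on both arrays in 126 genes and below 0 on both in 3. After the mean of each dye orientation over the other pairs was taken off, these counts were 124 and 17, with medians of 0.48 and 0.16. Across the 219 genes the A contrasts of the 2 arrays correlated at a Pearson r of 0.07 and a Spearman rho of 0.02. With the orientation means taken off these were 0.48 and 0.41. As deposited, the arrays thus shared the direction in most genes but not the order of genes by size. Position A was the highest of the 3 probes in 176 genes and on both arrays in 95.

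**Figure D1:**
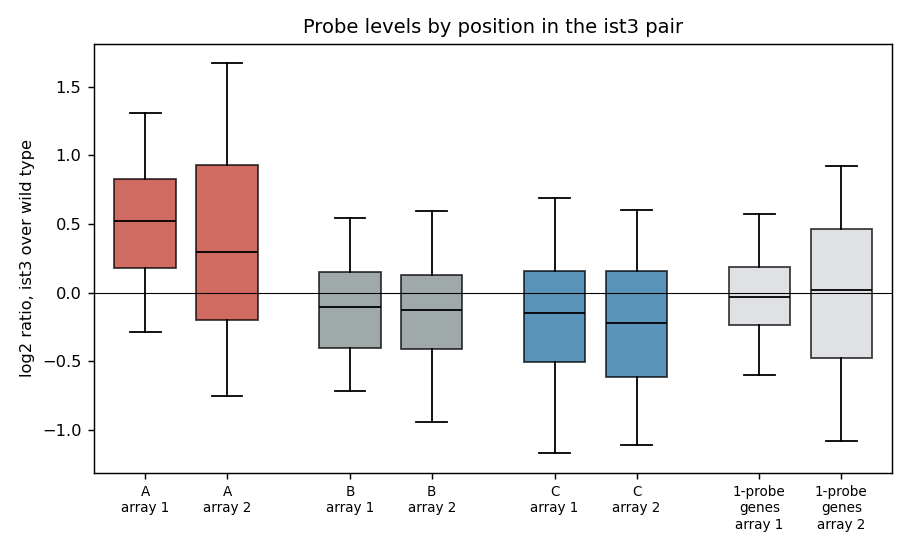
Log2 ratio of ist3 over wild type for probes at positions A, B and C of 219 genes and for genes with 1 probe, on each array of the pair. Boxes span the quartiles with the median, whiskers the 5th to 95th percentile. Position A medians were 0.52 and 0.30, and those of B, C and the genes with 1 probe lay between -0.22 and 0.02.

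ASC1, which encodes a beta-propeller protein of the small ribosomal subunit and carries a snoRNA in its intron, had the largest contrast. Its position A probe read 2.24 and 2.62 on arrays 1 and 2, position B read -0.36 and -0.21, and position C read -0.29 and 0.01. The contrast was 2.56 and 2.72, a mean of 2.64 ± 0.11 (limma, adjusted p = 4.86e-11, and 4.69e-09 over single arrays), and the other 13 pairs ran from -0.02 to 0.56. Only position A left the range of the other probes, by about the same amount on both arrays. STO1, the large subunit of the nuclear cap-binding complex, had a contrast of 1.88 and 1.87 (mean 1.87 ± 0.12, adjusted p = 6.32e-09), above the 0.07 to 0.79 of the other pairs. Its position A read 1.78 and 1.56, and B and C lay between -0.71 and 0.14.

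Ribosomal protein genes held 6 of the 10 highest contrasts, each called in both fits. RPL35A had contrasts of 1.56 and 2.68 (mean 2.12), with A at 1.17 and 2.37 and C at -0.65 and -0.52. RPS0B had 1.21 and 2.64 (mean 1.92), and RPL33A 1.46 and 2.39 (mean 1.92). In these genes the contrast was larger on array 2. RPS30B stood at 2.03 and 1.77 (mean 1.90), RPL43A at 1.15 and 2.11 (mean 1.63) and RPL13B at 1.34 and 1.89 (mean 1.62). IMD4, an IMP dehydrogenase of guanine nucleotide synthesis whose intron also holds a snoRNA, was at 2.12 and 1.13 (mean 1.63). In each of the 6 ribosomal genes and IMD4 position A was above 1 on both arrays. With array 2 alone and the mean of its orientation taken off, RPS30B was 0.62 and IMD4 0.77. With array 1 alone, RPS0B was 0.90 and RPL35A 1.39.

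**Figure D2:**
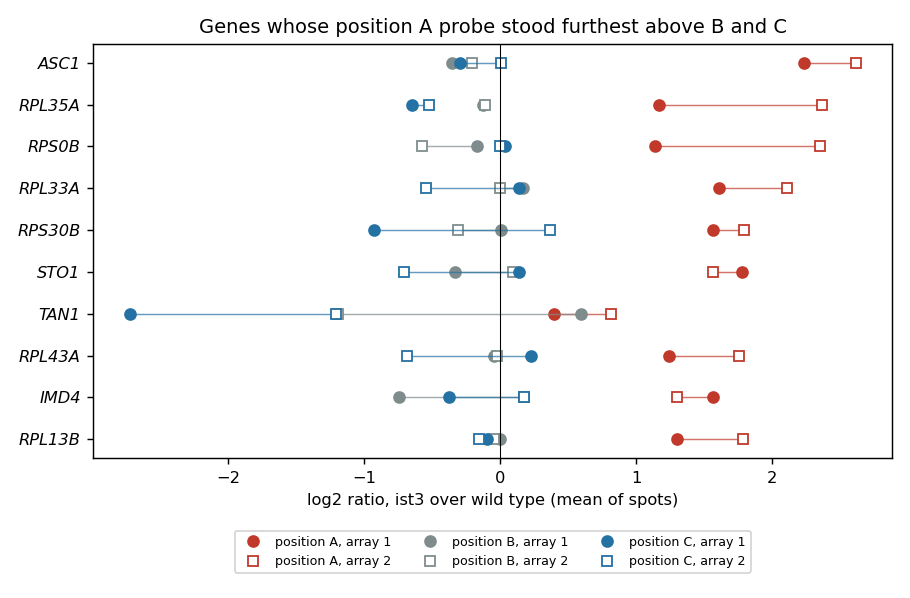
Log2 ratio of ist3 over wild type at positions A, B and C for the 10 genes with the highest contrast of A with B and C. Circles are array 1 and squares array 2, joined by a line for each position. In 9 genes A lay above 1 on both arrays, and in TAN1 A lay at 0.40 and 0.82 with C at -2.73 and -1.21.

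TAN1, needed for acetylation of cytidine in tRNA, differed from the other 9 genes with the highest contrasts. Its position A read 0.40 and 0.82, position B 0.59 and -1.19, and position C -2.73 and -1.21. The contrast of A was 1.46 and 2.02 (mean 1.74 ± 0.14, adjusted p = 5.57e-08), and that of C was -3.22 and -1.02 (mean -2.12 ± 0.11, adjusted p = 2.18e-12), below the -0.71 to 0.28 of the other pairs. Position C was thus the lowest on both arrays, with B close to it on array 2. SPO1, a meiosis-specific phospholipase-like gene, was the only gene with a lower A contrast of one sign on both arrays, at -0.04 and -0.77 (mean -0.40, adjusted p = 0.00266), and not in the fit over single arrays.

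By group, genes of the small ribosomal subunit had a higher contrast of A in 37 of 39 and a lower one in none. Those of the large subunit were higher in 43 of 50 and lower in none. Genes other than ribosomal proteins were higher in 80 of 130 and lower in 5. Median contrasts were 0.89, 0.88 and 0.32 in the same order, against 0.53 over all 219. The fit over single arrays called 33, 38 and 44 higher, with 1 lower in the last group. Median levels of position A were 0.67 in the small subunit, 0.66 in the large subunit and 0.20 elsewhere, while B and C medians lay between -0.28 and -0.08 in all 3 groups. The groups were thus further apart at A than at B or C; the difference between groups was not tested.

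Among 36 duplicated ribosomal protein genes with both copies measured, both copies were higher in 30 pairs, 1 copy in 4 and neither in 2. Taken singly, 37 of 39 small and 43 of 50 large subunit genes were higher. With shares that high, the pair counts are not a result about the copies. The median absolute difference between copies was 0.37. RPL17A and RPL17B stood at 1.41 and 1.40. RPS19A (0.20 and -0.50, mean -0.15) and RPS19B (0.97 and 2.07, mean 1.52) were furthest apart. How specific the probes are to a copy is not given, so the copies are not separate evidence.

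Outside ribosomal proteins, the intron gene list was higher in 64 of 99 and lower in 3, also below the 73.1% over all 219 genes. ACT1, encoding actin and the classic spliced transcript of yeast, had a contrast of 1.01 and 0.87 (mean 0.94 ± 0.11, adjusted p = 1.48e-06). Its position A read 0.46 and 0.77, B -0.72 and 0.06 and C -0.40 and -0.27. Of 8 snoRNA host genes 7 were higher at A and all 8 lower at C, against 73.1% higher at A and 135 of 219 lower at C over all genes with positions. Beside ASC1 and IMD4, RPL7A was at 0.98 (1.73 and 0.24) and NOG2, a GTPase of 60S export, at 0.55 (0.63 and 0.47). RPL7B was the exception at A, at 0.38 and -0.87.

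Genes that regulate their own expression through their intron were higher at A in 5 of 9 and lower in 1, a share below the 73.1% over all 219 genes. RPL30, whose protein binds its own transcript, was at 1.06 and 1.19 (mean 1.13), DBP2, an RNA helicase, at 0.83 and 1.15 (mean 0.99), and RPS14B at 0.84 and 1.14 (mean 0.99). All 3 had the same sign and like size on both arrays. RPS22B had a contrast of 0.81 and 1.04 with every position below 0, A at -0.36 and -0.23 and C at -1.72 and -1.11. YRA1, an mRNA export factor, was lower at -0.32 (0.24 and -0.87), which the fit over single arrays did not call. HAC1, whose intron is removed by Ire1 and a tRNA ligase and not by the spliceosome, was at -0.24 and -0.20 (mean -0.22 ± 0.10, adjusted p = 0.0681).

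The meiotic intron genes include AMA1, REC107 (MER2), HFM1 (MER3) and SPO22, which need the activator Mer1 for splicing in meiosis. Of 10 measured, 5 were higher, 2 lower and 3 not called, against 160 higher and 5 lower of all 219, and the fit over single arrays called none. REC107 was at -0.08 and 1.45 (mean 0.68), AMA1 at -0.05 and 0.69 (mean 0.32), and HFM1 at 0.62 and -0.32 (mean 0.15, not called). In these 3 genes the arrays differed in sign. The genes are little expressed in growing cells, and signal over background is not given here. HFM1, REC107, AMA1 and ACT1 were added to the named genes after their values were seen.

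Positions C and B were lower within the gene. C less A and B was called in 146 of 219 genes (66.7%), 135 lower and 11 higher, and in 56 (25.6%) over single arrays, all lower. It was below 0 on both arrays in 112 genes and above 0 on both in 8, with a median of -0.38. B less A and C was called in 125 (57.1%), 109 lower and 16 higher, and in 58 (26.5%) over single arrays. The 3 contrasts sum to 0 in each gene and so are not independent. Across genes the 2 arrays correlated at a Pearson r of -0.33 for the C contrast and -0.21 for B. With the orientation means taken off these were 0.05 and 0.14. In 123 genes A was higher and C lower. With array 2 alone and the mean of its orientation taken off, the median contrast was -0.07 at C and -0.16 at B. With the average dye effect of the other pairs taken off instead, array 2 alone gave -0.18 at C. The size of the C contrast on array 2 thus depended on the correction for dye, and as deposited the C medians were -0.41 and -0.37. With array 1 alone and the mean of its orientation taken off, the median contrast was -0.39 at C and -0.04 at B.

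After TAN1, the lowest C contrasts were in RPL35A (-1.17 and -1.65, mean -1.41), RPL39 (-2.07 and -0.73, mean -1.40) and ASC1 (-1.23 and -1.20, mean -1.22). RPL27A followed at -2.10 and -0.32 (mean -1.21), RPL33A at -0.75 and -1.60 (mean -1.18), STO1 at -0.59 and -1.54 (mean -1.06) and RPS30B at -1.71 and -0.38 (mean -1.05). OST5, an oligosaccharyltransferase subunit, was at -1.23 and -0.80 (mean -1.01), and RPL36A at -0.82 and -1.18 (mean -0.997). RPS30B and OST5 were not called over single arrays, and RPS30B turned to 0.33 with array 2 alone. The highest C contrasts of one sign were HAC1 (0.75 and 0.22, mean 0.48), SPO1 (0.08 and 0.72, mean 0.40), RIM1, a mitochondrial single-stranded DNA binding protein (0.10 and 0.41, mean 0.25), and RPL28 (0.19 and 0.28, mean 0.23). None of these 4 was called over single arrays, and HAC1 was at -0.22 with array 2 alone and SPO1 at -0.30 with array 1 alone.

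Set against the other strains, the A contrast was larger in ist3. The median over 219 genes was 0.53 in ist3, 0.32 in isy1, 0.17 in YPR045C, 0.12 in csn12, -0.10 in csn9 and -0.09 in pci8. In tgs1 and ynr004w at 30 °C it was 0.20 and 0.22, and at 16 °C, which set the orientation, it was 0.33 to 0.45. Tested directly, ist3 less the mean of the other 5 log phase strains was called in 145 of 219 genes (66.2%), 140 above and 5 below, and in 88 (40.2%), all above, over single arrays. The median of that difference over 219 genes was 0.46. With array 2 alone it was 0.07 with the orientation mean taken off and 0.35 with the average dye effect taken off. With array 1 alone these were 0.35 and 0.62. The arrays of csn9, pci8 and isy1 do not share the leading title number of ist3, and its part was not tested. ASC1 differed by 2.44, RPL33A by 1.75, TAN1 by 1.65 and STO1 by 1.59. The A contrast exceeded that of every other pair in 84 genes and lay below every other pair in 4. The C contrast was called in 127 genes against the 5 strains (58%), 122 below, and in 20 (9.13%) over single arrays, all below. The median C difference was -0.31. With array 2 alone it turned to 0.008 with the orientation mean taken off, and was -0.14 with the average dye effect taken off. The B contrast was called in 109 (49.8%), 15 above and 94 below, and, over single arrays, in 15 (6.85%). The median B difference was -0.22, and -0.001 with array 1 alone and the orientation mean taken off.

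**Figure D3:**
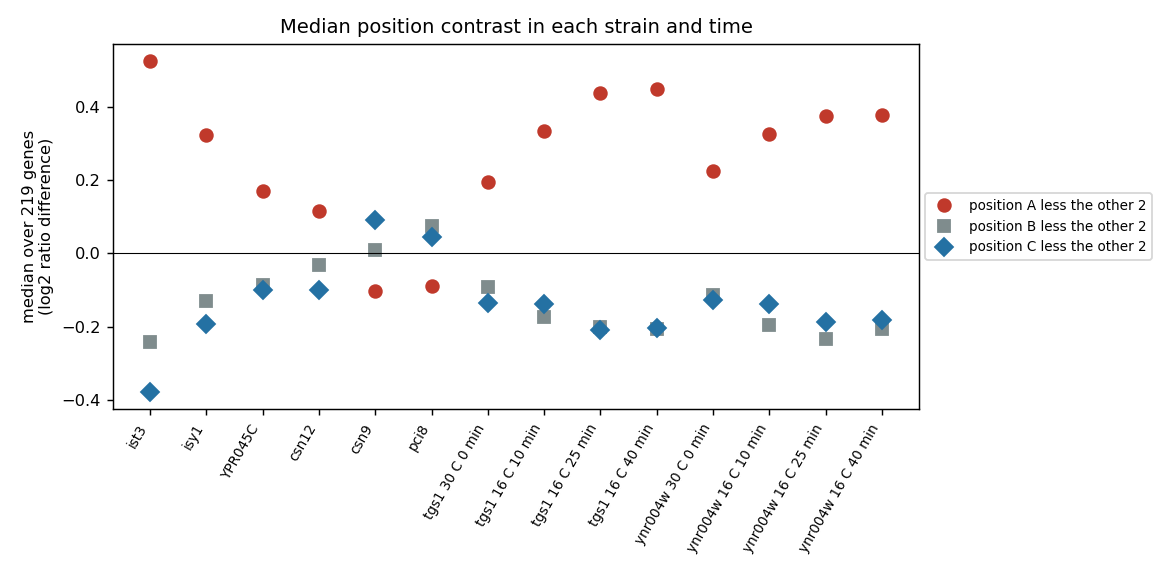
Median over 219 genes of each position less the other 2, in log2 ratio, for the 14 pairs. Circles are A, squares B and diamonds C. At A, ist3 is at 0.53, isy1 at 0.32 and pci8 and csn9 are just below 0; the 16 °C pairs of tgs1 and ynr004w set which linked well is A.

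Against isy1, which lacks a component of the Prp19-associated complex, the difference went both ways. Of 95 genes called (43.4%), 67 were above in ist3 and 28 below. ASC1 was at 0.06 in isy1 and IMD4 at -0.43, against 2.64 and 1.63 in ist3. RPS17B was at 2.15 in isy1 and 0.61 in ist3, RPL36A at 2.08 and 0.80, and RPS19A at 1.26 and -0.15. RPL33A was at 0.22 in isy1 and 1.92 in ist3. These 6 genes, 3 at each end of the order by difference, were chosen after their values were seen, and each was among the 51 genes called over single arrays (23.3%). Against YPR045C 108 genes were called (49.3%), 106 above and 2 below.

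Averaged over the probes of a gene, 554 of 982 genes differed from wild type (56.4%), 262 higher (26.7%) and 292 lower (29.7%), and 316 of them had one sign on both arrays. Over single arrays 76 were called (7.74%), 48 higher and 28 lower. By probe the counts were 836 of 1456 (57.4%) and 195 (13.4%). Most gene level calls thus rested on the spread borrowed from other strains. Without position A probes the split of 571 called genes was 211 higher and 360 lower.

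**Figure D4:**
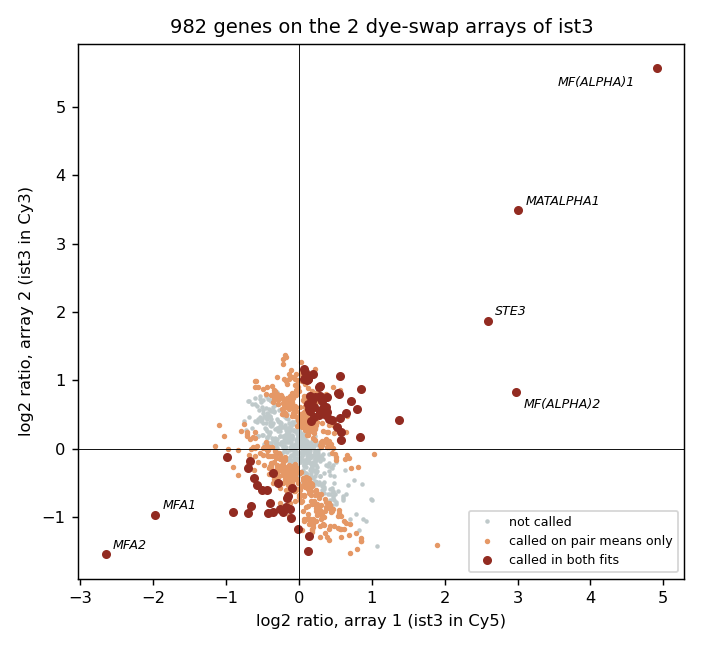
Log2 ratio of 982 genes on array 1 (ist3 in Cy5) and array 2 (ist3 in Cy3). Grey genes were not called, orange genes were called on the pair mean only, and the 76 dark red genes in both limma fits. The alpha-cell genes lie at the upper right, up to 4.91 and 5.57 for MF(ALPHA)1, and MFA1 and MFA2 at the lower left.

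Mating type genes moved furthest. MF(ALPHA)1, a precursor of the alpha-factor pheromone, read 4.91 and 5.57 (mean 5.24), and MATALPHA1, the alpha-cell activator, 3.01 and 3.49 (mean 3.25). STE3, the a-factor receptor of alpha cells, read 2.59 and 1.87 (mean 2.23) and MF(ALPHA)2 2.98 and 0.82 (mean 1.90). All 3 measured alpha-specific genes were higher and both a-specific genes lower, MFA2 at -2.65 and -1.55 (mean -2.10) and MFA1 at -1.97 and -0.97 (mean -1.47), in both fits. The repressor gene MATALPHA2 was at 1.37 and 0.41 (mean 0.89). Genes named for the silent a cassette were HMRA2 at 0.64 and 0.24 and HMRA1 at -0.15 and -0.53, neither called over single arrays. How specific their probes are to that cassette is not given. STE2, STE6, BAR1, AGA2, ASG7 and SAG1 had no named probe. Other pairs ranged from -5.04 to 4.84 for MF(ALPHA)1, so other strains also differed from their wild type at these genes. YPR045C had the same pattern: the median of the alpha-specific genes was 3.02 there and 2.23 in ist3, and that of the a-specific genes -2.65 and -1.79. MF(ALPHA)1 was at 4.84 in YPR045C, MATALPHA1 at 3.99 and STE3 at 2.71. In the other 4 log phase strains the alpha-specific medians lay between 0.05 and 0.25. The part of this difference in other results was not tested. With array 2 alone and the average dye effect of the other pairs taken off, MFA1 was at -0.83, MF(ALPHA)2 at 1.26 and MATALPHA2 at 0.38.

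Among 7 pheromone response genes, 4 were called higher (26.7% of all genes were) and 2 lower (29.7%). The list's median was 0.50 in ist3 and 0.62 in YPR045C, and lay between -0.04 and 0.10 in csn12, csn9, pci8 and isy1. SST2, the regulator that ends pheromone signalling, was at 0.57 and 1.05 (mean 0.81), KAR4, a transcription factor of mating, at 0.84 and 0.17 (mean 0.50) and STE12, the pathway's transcription factor, at 0.06 and 1.158 (mean 0.61), all in both fits. FUS3, its MAP kinase, was at -0.11 and 1.155 (mean 0.52) and was not called over single arrays.

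Ribosome biogenesis factors were higher in 20 of 36 genes and lower in 5, against 262 and 292 of 982 over all genes, with a median of 0.22 against -0.01. Most of the size came from array 2, which had the wider spread over all spots. ECM16, an RNA helicase, was at 0.03 and 1.26, RRP3 at 0.05 and 1.12 and ROK1 at -0.04 and 1.09. The median of the list was 0.08 on array 1 and 0.38 on array 2, and 3 genes were called over single arrays. NOP56, a core protein of box C/D snoRNPs, was at 0.57 and 0.85 (mean 0.71), though not called over single arrays.

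RNA decay genes were higher in 13 of 33 and lower in 6, against 26.7% and 29.7% over all genes. RRP6, the nuclear exosome exonuclease, was at 0.22 and 1.17 (mean 0.69), RRP40 at 0.03 and 1.13 and CSL4, both exosome subunits, at 0.32 and 0.69. PAT1, a decapping activator, was at 0.18 and -1.23. CSL4 was called over single arrays, and the other 3 were not. Of mRNA export and cap-binding genes 10 of 20 were higher and 4 lower, against the same shares, NAB2, a poly(A)-binding protein, at 0.36 and 0.80, HRP1 at 0.21 and 0.63, NPL3 at 0.11 and 0.76 and DBP5, an export helicase, lower at -0.39 and -0.80 (mean -0.60, both fits). NAB2, HRP1 and NPL3 were not called over single arrays.

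Genes of the splicing machinery were called at shares near those over all genes (26.7% higher and 29.7% lower), so their counts are not a result about them. In the RES and U2 list 5 of 17 were higher and 4 lower, in the Prp19-associated list 7 and 9 of 27, and in the U1 and U4/U6.U5 list 9 and 15 of 42. SUB2, a helicase of early spliceosome assembly and export, was at 0.12 and 0.66 (mean 0.39, both fits), and the SF3 subunits HSH49 at 0.05 and 0.71, RSE1 at 0.04 and -0.77 and CUS1 at -0.06 and -0.59. PRP40, a U1 protein, was at 0.12 and 1.02 (mean 0.57) and AAR2, a U5 assembly factor, at -0.12 and -0.89 (mean -0.51), both in both fits. PRP28, the helicase that removes U1, was at -0.09 and -0.58 (mean -0.33, both fits) and PRP8, the core of U5, at -0.00 and 0.84. The ATPases PRP16 and PRP22 read -0.17 and 1.33, and -0.23 and 0.76, the step factor YJU2 0.13 and 0.61 and SPP2 -0.16 and -0.36, none of them called over single arrays. In each of these genes the value on array 2 was the larger in size, and array 2 had the wider spread over all spots.

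All 6 measured carbon metabolism genes were lower, against 29.7% over all genes, 3 of them in both fits. GPD1, glycerol 3-phosphate dehydrogenase, was at -0.70 and -0.95 (mean -0.82), TYE7, an activator of glycolytic genes, at -0.22 and -0.93 (mean -0.57) and PGK1, phosphoglycerate kinase, at -0.69 and -0.29 (mean -0.49). TDH1 was at -1.15 and 0.03 (mean -0.56), and turned to 0.51 with array 2 alone and the mean of its orientation taken off. Of 10 chaperone genes 2 were higher and 2 lower, both below the shares over all genes. HSC82, a Hsp90, was at 0.47 and 0.90 (mean 0.69), KAR2 at -0.10 and 0.69, SSA3 at -0.37 and -0.21 and SSE2 at 0.37 and -0.78, none called over single arrays.

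Ribosomal protein genes were higher in 20 of 53 (small subunit) and 25 of 73 (large subunit) and lower in 9 and 6, against 26.7% and 29.7% over all genes. RPS9A was at 0.71 and 0.70, RPL20B at 0.80 and 0.57, RPL40A at 0.55 and 0.81 and RPS18B at 0.39 and 0.76, each in both fits. Without their position A probes RPS9A was at 0.39, RPL20B at 0.38, RPL40A at 0.30 and RPS18B at 0.093, the last no longer called. RPL33A stood at 0.58, but at -0.06 without its position A probe. RPS22B was lower at -0.91 and -0.92, and in the other pairs ran from -1.20 to 0.04. RPS20 was at 0.65 and 0.48 and RPL41A, which has 1 probe, at -0.26 and -0.79. ASC1 as a gene was at 0.53 and 0.81 (mean 0.67), and at -0.21 without its position A probe. IMD4 likewise turned from 0.35 to -0.19. In the intron gene list outside ribosomal proteins 19 of 103 genes were higher and 23 lower, both below the shares over all genes. GLC7, the protein phosphatase 1 catalytic subunit, was at 0.13 and 1.02 (both fits), TAN1 at -0.58 and -0.53 (both fits) and RPO26, a shared RNA polymerase subunit, at -0.84 and -0.03, with 0.16 when array 2 stood alone. Of 12 meiotic genes 3 were higher and 3 lower, near the shares over all genes, SAE3 at -0.13 and 1.09, REC114 at -0.06 and -0.62, SRC1 at 0.05 and 0.53 and HOP2 at 0.09 and -0.57. Of 8 snoRNA host genes 5 were higher and 1 lower, and of 10 autoregulated genes 3 and 2, against the same 26.7% and 29.7%, DBP2 at 0.28 and 0.54 (mean 0.41, but 0.085 and not called without position A), RPL7B at 0.27 and 0.49 and RPS14B at -0.66 and -0.01.

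Nuclear tRNA genes were lower in 20 of 40 and higher in 4, against 29.7% and 26.7% over all genes, with 3 lower over single arrays. YNCB0015W was at -0.42 and -0.94 (mean -0.68) and YNCF0009C at -0.44 and -0.61 (mean -0.53), both in both fits, while YNCB0016W read 0.18 and -1.19 and YNCB0018W -0.97 and -0.00. Mitochondrial tRNA genes were lower in 8 of 24 and higher in 5, near the shares over all genes, tM(CAU)Q1 at -0.90 and -0.27, tN(GUU)Q at 0.04 and -1.20, tD(GUC)Q at 0.29 and -1.30 and tC(GCA)Q at -0.17 and 0.94, none called over single arrays.

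**Figure D5:**
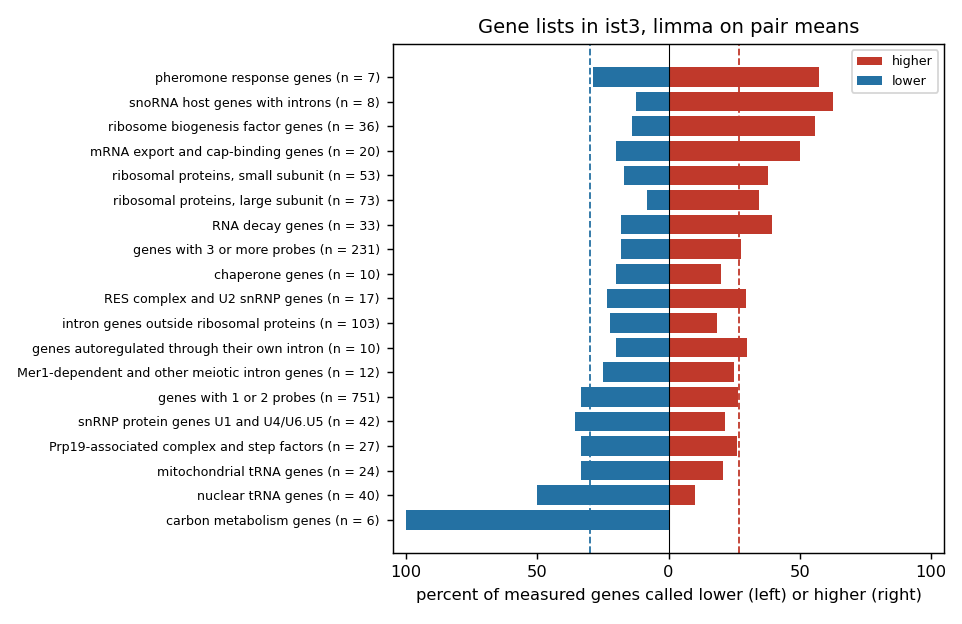
Percent of the measured genes of each list called higher (right, red) or lower (left, blue) in ist3 by limma on the pair mean, ordered by the list's median. Dashed lines are the shares over all 982 genes, 26.7% higher and 29.7% lower. Ribosome biogenesis factors and snoRNA host genes lie to the right of the higher line, and carbon metabolism and nuclear tRNA genes to the left of the lower line.

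Further genes of one sign on both arrays stood outside these lists. GTS1 was higher at 0.85 and 0.86 (both fits). SPL2, an inhibitor of low-affinity phosphate uptake, was lower at -0.66 and -0.85, PPZ1, a phosphatase of salt tolerance, at -0.36 and -0.92 and GSP2, a Ran GTPase, at -0.02 and -1.17, all in both fits. GAL11, a Mediator subunit, was at -0.84 and -0.38 and was not called over single arrays. With array 1 alone and the mean of its orientation taken off, GTS1 was at 0.06, SPL2 at -0.21 and GSP2 at -0.23.

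Tested against the mean of the other 5 log phase strains, 376 of 982 genes differed (38.3%), 182 above and 194 below, and 33 (3.36%) over single arrays. By probe the counts were 574 (39.4%) and 100 (6.87%). Of the 5 strains only csn12 and YPR045C share the leading title number of ist3, and its part in these counts was not tested. YPR045C is 1 of these 5 and was at like or larger values for the mating type genes; against it alone 87 genes differed (8.86%), and 4 (0.407%) over single arrays. The largest differences above the mean of the 5 were MF(ALPHA)1 at 3.95, MATALPHA1 at 2.07, STE3 at 1.68, MF(ALPHA)2 at 1.33, ASC1 at 0.82, tC(GCA)Q at 0.80, RPS9A at 0.79 and NOP56 at 0.74. Below were MFA2 at -1.35, TDH1 at -0.96, GPD1 at -0.81, MFA1 at -0.73, TYE7 at -0.62, YNCB0015W at -0.61, SPL2 at -0.59 and ADR1, a regulator of glucose-repressed genes, at -0.59. Over single arrays tC(GCA)Q, NOP56, MFA1, TYE7, YNCB0015W and ADR1 were not called. TDH1 was at 0.11 with array 2 alone and the mean of its orientation taken off.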

How the data were processed

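The deposited value table holds 1 log ratio per spot, read as log2 because the values contradict no such reading; no source used here gives the authors' scanner, background correction, normalization or log base. Per the labels, channel 1 is the mutant on both arrays. Columns were matched to samples through their names. Probes were named through the platform annotation and the RefSeq gene table of assembly R64 (982 of 982 identifiers matched), and 79 of 1536 probes had no name. No build is named, so no coordinates are printed.

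Arrays were median-centred, and means were taken over the 6 spots of each probe, then over the 2 arrays, then over a gene's probes. limma 3.58.1 (lmFit, eBayes; R 4.3.3) was fitted to 14 pair means in 10 groups with 4 residual and 6.33 prior degrees of freedom. Tests were 2-sided, Benjamini-Hochberg adjusted over all features at 0.05. A second fit used 28 arrays with a dye term. The replicate numbers mark dye orientations, not cultures, so p-values of the second fit measure spread that may be technical. Differences between positions and between strains were tested in the same fits. The scripts were tested on simulated data.

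The genes named are IST3 and its neighbours; of those called with one sign on both arrays, the 12 highest and 12 lowest, and for position contrasts the 10 highest and 10 lowest; the 8 at each end against the other strains; and up to 4 members per list. Members and lists were chosen with earlier results of these data known. Other values were named outside this rule, among them BUD13, PML1 and A contrasts outside the 10 highest and 10 lowest. Those are not among the 120 named values whose dependence on the processing is given below. Lists are described by counts and medians.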

Additional observations from a re-analysis of the deposited data

How the results depend on the processing

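With each array entered singly and a term for the dye, which here equals the replicate block, the counts of calls against wild type went from 554 to 76 for genes, 836 to 195 for probes, 125 to 58 at position B and 146 to 56 at position C. Against the other 5 log phase strains they went from 376 to 33 for genes, 574 to 100 for probes, 145 to 88 at A, 109 to 15 at B and 127 to 20 at C. With balanced dye swaps that fit gives the same estimates as the pair means, so it could not reverse a named value. Of 120 named values, 54 lost their call.

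A fit with 1 ist3 array takes its spread from pair means of 2 arrays, so only its estimates are given. The median A contrast with array 1 alone was 0.48 with the orientation mean taken off and 0.72 with the average dye effect taken off. With array 2 alone these were 0.16 and 0.39, against 0.53 for the pair. Leaving out a time point at 16 °C left 532 to 582 genes called, and 157 to 175 genes at A. Without position A probes 211 genes were higher and 360 lower.

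Of 120 named values, those that turned were the following. With array 2 alone and the orientation mean taken off, IST3 was -0.38, tM(CAU)Q1 0.013, RPS30B at C 0.33, HAC1 at C -0.22, RPO26 0.16, RPS14B 0.14, TDH1 0.51 (0.11 against the other strains) and YNCB0018W 0.015. With the dye effect taken off instead, IST3 was -0.35 and RPO26 0.081. With array 1 alone and the orientation mean taken off, SPO1 at C was -0.30, NPL3 -0.0039, SSE2 0.052 and tC(GCA)Q -0.14, and with the dye effect taken off SPO1 at C was -0.28 and tC(GCA)Q -0.31. With the median over probes ASC1 was -0.14 and IMD4 -0.10, and without position A probes ASC1 was -0.21, IMD4 -0.19 and RPL33A -0.061, since those settings drop or outvote the position A probe. For the other values that turned, the cause was not tested. Removing an orientation mean also removes any contrast that ist3 shares with the other strains. The single dye-swap pair and the unknown signal over background limit the precision.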

Other observations

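Of 79 probes with no gene name, 38 were called in the arrays labelled ist3 by limma on the pair means, with values from -1.74 to 3.07. They were fitted and adjusted apart from the named probes. Their share called was below the 57.4% over named probes, so the count is not a result about them.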
